A study of Rattus norvegicus with 12 samples.

Results

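GABA-A receptor subunit messenger RNA was examined in rat brain after cerebral ischemia and reperfusion, with and without electroacupuncture. The 7 subunit genes are Gabra2, Gabra3, Gabra4, Gabra5, Gabrb1, Gabrb2 and Gabrd, taken by symbol from the 18800 gene symbols of the count table, and all 7 passed the filter on low counts. The rats were of the Sprague-Dawley strain. The sources used here do not give age, sex, brain region, side or the interval after the operation. Control rats were bundled (restrained) for the same time and to the same degree as the others and received no electroacupuncture. Their columns in the count table are named as sham-operated, while the labels give them no operation. Model rats had middle cerebral artery occlusion with reperfusion (MCAO/R), in which a large artery of the brain is blocked and reopened, and were bundled without electroacupuncture. Electroacupuncture rats had the same operation, were bundled, and received current through needles at the Tianfu, Chize, Kongzui and Taiyuan acupoints, which are 4 points of the Lung Meridian. Restraint was thus common to all 3 groups.

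GABA-A receptors are chloride channels opened by GABA, the main inhibitory transmitter of the brain. Each receptor is a ring of subunits, usually of alpha, beta and gamma or delta type, and GABA binds where an alpha meets a beta subunit. The alpha subunit sets much of the receptor's pharmacology and place: receptors with gamma2 gather at synapses, while those with alpha5, or with alpha4 and delta, lie largely outside synapses and carry tonic inhibition. Alpha5 is known for its high level in hippocampal pyramidal cells, and delta with alpha4 for dentate granule cells, thalamus and striatum.

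The table has 11 columns for 12 labelled samples, 3 for control and 4 for each operated group. For 3 pairs of columns within a group, squared count differences were close to what sampling gives (a median of 1.34 to 1.4 times its variance, against at least 3.64 times in any other pair). Each such pair entered as 1 sample. The comparisons therefore rest on 3 control samples, 2 model samples (A and B) and 3 electroacupuncture samples, with totals of 9335913 to 23835724 counts. The lowest count of a member in a sample was 44. Levels are CPM (counts scaled to a common library total) with TMM scaling, not corrected for gene length, so that each gene is compared with itself across samples. Neuronal markers were present in all samples, with Snap25, a synaptic vesicle fusion protein, between 1120 and 4910 CPM. The pan-neuronal marker list summed to 6170 to 6920 CPM in controls, 4740 (A) and 8700 (B) CPM for the model, and 2890 (A), 7020 (B) and 5810 (C) CPM in the treated samples. In electroacupuncture A the mean log2 difference of this list was -1.03, beside -1.24 for Gabra2, -1.08 for Gabrb1 and -1.04 for Gabrb2. In the same sample Gabra5 stood at -2.99, Gabra4 at -0.42, Gabrd at 0.38 and Gabra3 at 0.84. The part of the list in the subunit levels was not tested.

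Electroacupuncture A and both model samples stood apart from the other samples in markers of brain region. The 7 tested hippocampal marker genes averaged -1.64 (model A), -1.52 (model B) and -1.35 (electroacupuncture A) as log2 differences from the mean of the controls. The same average was -0.08 for electroacupuncture B and -0.30 for C. Of the 7 genes, 5 were lower and 2 higher in estimate in the model than in controls. Prox1 stood at 6.38 (model A) and 3.83 (model B) CPM, against 62.7 to 96 CPM in controls. Ociad2 went the other way, at 35.8 (A) and 55.5 (B) CPM against 26.9 to 28.4 CPM in controls. Striatal medium spiny neuron genes summed to 4790 CPM in electroacupuncture A and 713 CPM in model A, while the other 6 samples held 151 to 348 CPM. Glutamatergic neuron genes summed to 38.2 CPM in electroacupuncture A and 196 to 483 CPM in the model, with 696 to 1040 CPM elsewhere. Neurod6, a list member and a transcription factor of forebrain excitatory neurons, had 5.29 CPM in electroacupuncture A, 39.1 to 70.3 CPM in the model and 239 to 369 CPM in the remaining 5 samples. Of the 4 genes of this list, 3 were lower and 1 higher in estimate in the model than in controls. Slc17a6 stood at 10.3 (model A) and 13.3 (model B) CPM, against 8.64 to 13.2 CPM in controls. Slc17a7 in model B (353 CPM) lay inside the control range of 342 to 521 CPM. The striatal and glutamatergic lists' part in the subunit levels was not tested, and a fit with the hippocampal list as a covariate is given with Gabra5. In bulk tissue fewer cells of a type and less RNA per cell cannot be told apart.

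Model against control addresses the effect of the operation on the subunits. Gabra5 was lower and Gabra3 higher in both model samples than in any control, and these were the largest differences among the members in the 2 directions. None of the 7 passed at an adjusted p under 0.05 (edgeR quasi-likelihood test, Benjamini-Hochberg over 15487 genes), a threshold that 0.00646% of all genes passed. At an unadjusted p under 0.05 there were 2 members, Gabra3 and Gabra5, where 13.8% of all genes lay under that value. Of the 7 members, 4 were lower in estimate, where 48.5% of all genes were, and 3 higher, with a median log2 fold change of -0.27 beside 0.02 over all genes. The model samples did not overlap the controls for 3 members, where 37.8% of all genes did not. Of these 3, 1 member (Gabra3) lay above, where 18.2% of all genes did, and 2 (Gabra2 and Gabra5) below, where 19.6% did.

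**Figure D1:**
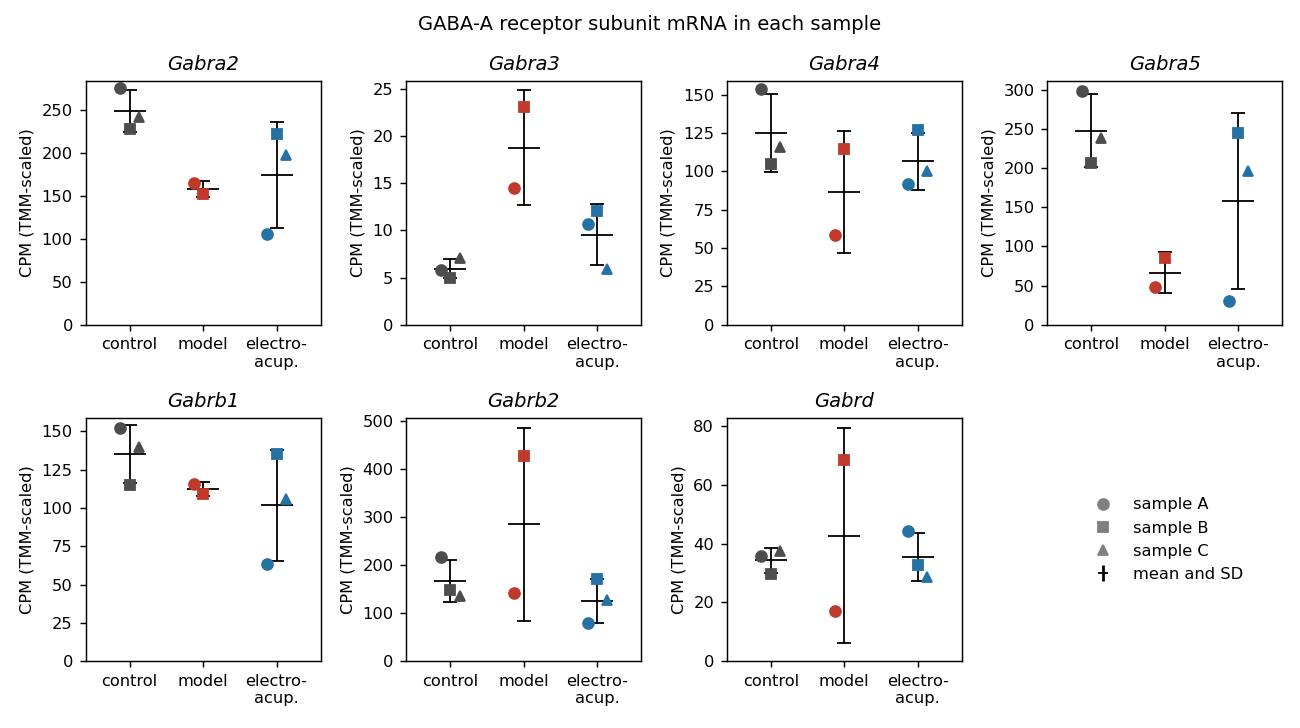
CPM (TMM-scaled, vertical axis from 0) of each GABA-A receptor subunit in the 3 control, 2 model and 3 electroacupuncture samples, with the mean and SD of each group. Gabra5 is low in model A and B and in treated sample A (30.7 to 84.9 CPM) and between 196.5 and 298 CPM in the other 5, while Gabra3 is highest in the model.

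Gabra5 encodes alpha5, the subunit of tonic inhibition in the hippocampus. Controls A to C held 298, 206 and 239 CPM, the model samples 47.7 (A) and 84.9 (B) CPM, and the treated samples 30.7 (A), 246 (B) and 196.5 (C) CPM. Both model samples and electroacupuncture A were low, and the remaining 5 samples lay together. The model mean was 66.3 ± 26.2 CPM (SD, n = 2) against 248 ± 46.4 CPM (SD, n = 3) in controls, a 3.74-fold lower level (log2 fold change -1.90, SE 0.77, edgeR adjusted p = 0.334). Without electroacupuncture A, the same difference of -1.91 had an SE of 0.30 and an edgeR adjusted p of 0.0231, and 565 genes were then called, or 3.7% of those tested. The 3 samples low in Gabra5 are the 3 that were low in the hippocampal list, which does not contain Gabra5. With the level of that list as a covariate in the edgeR fit, the Gabra5 difference turned to 1.98 (adjusted p = 0.139). Those of Gabra2, Gabrb1, Gabra4 and Gabrd turned to 0.69, 1.01, 0.04 and -0.15. Within groups the list level varied mainly through electroacupuncture A, so this adjustment rests largely on that sample. Both model samples were low in the list and no control was, so in model against control the list level and the operation cannot be told apart. Electroacupuncture B and C, which had both the operation and the treatment, had list averages (-0.08 and -0.30) and Gabra5 levels near those of controls. Because they were also treated, they cannot separate the operation from the list level, and the part of either was not tested.

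Gabra3 encodes alpha3, a synaptic subunit of deep cortical layers and of the thalamic reticular nucleus. Controls A to C held 5.77, 5.00 and 7.05 CPM, the model samples 14.5 (A) and 23.05 (B) CPM, and the treated samples 10.7 (A), 12.1 (B) and 5.91 (C) CPM. The model and control ranges were separate, and 2 of the 3 electroacupuncture samples lay between them. The model mean of 18.8 ± 6.07 CPM (SD, n = 2) was 3.15-fold that of controls, 5.94 ± 1.04 CPM (SD, n = 3), with a log2 fold change of 1.65, an SE of 0.35 and an edgeR adjusted p of 0.147. By unadjusted p (0.00183) it ranked 192 of 15487 genes. The same estimate passed with DESeq2 (1.66, adjusted p = 0.00301, where 5.11% of genes passed) and with edgeR on all 11 columns as separate libraries (1.65, adjusted p = 0.0123, where 7.37% passed). The latter fit counts near-identical columns as independent, so its n exceeds the number of distinct samples and its p is too small. The direction held in each of the 8 edgeR fits that left out 1 sample (1.27 to 1.95), with adjusted p between 0.0576 and 0.511. Counts of Gabra3 were fractional in all 11 columns, as were those of Gabra2 and Gabrb2. The sources used here do not say how reads shared between genes were counted.

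Gabra2 encodes alpha2, a synaptic subunit that is enriched at the axon initial segment of pyramidal cells. It lay at 275, 228 and 242 CPM in controls, 165 (A) and 152 (B) CPM for the model, and 105 (A), 222 (B) and 197 (C) CPM for the treated samples. All 5 samples of the operated groups lay below every control. Electroacupuncture B (222 CPM) was close to the lowest control (228 CPM). Of all genes, 19.6% had the model samples below every control, and 4.88% had the electroacupuncture samples below. The share of genes with both groups below was not counted. The model was 1.57-fold lower than control (log2 fold change -0.65, SE 0.31, edgeR adjusted p = 0.395).

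The partners of extrasynaptic receptors did not share a direction in the model. Gabra4, which encodes alpha4, stood at 154, 105 and 116 CPM in controls, with 58.5 (A) and 115 (B) CPM for the model. Gabrd, which encodes delta, stood at 35.8, 29.6 and 37.4 CPM in controls, with 17.0 (A) and 68.4 (B) CPM for the model. Model A was thus below every control for both genes, whereas model B was above every control for Gabrd and inside the control range for Gabra4. The fitted log2 fold changes were -0.53 (SE 0.31, edgeR adjusted p = 0.484) for Gabra4 and 0.32 (SE 0.50, edgeR adjusted p = 0.799) for Gabrd. For Gabrd the value was -1.01 without model B and 0.99 without model A, so its direction depends on which model sample is kept. Gabra4 went to -1.10 without model B and to -0.13 without model A.

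Beta subunits complete the GABA binding site. Gabrb1, the gene of beta1, measured 152, 115 and 139.6 CPM in controls, with 116 (A) and 109 (B) CPM for the model, so that model A lay inside the control range and model B just below it (log2 fold change -0.27, SE 0.30, edgeR adjusted p = 0.714). Gabrb2, the gene of beta2, stood at 218, 148 and 136 CPM in controls, with 142 (A) and 427 (B) CPM for the model. Only model B was outside the controls for Gabrb2, and the log2 fold change of 0.77 (SE 0.49, edgeR adjusted p = 0.51) was -0.24 without model B and 1.35 without model A. The neocortical marker list averaged a log2 difference of 0.04 for model A but 1.13 for model B. Its genes were split, with 5 higher and 3 lower in estimate in the model than in controls. In model B Lamp5 stood at 303 CPM (32.1 to 42.1 in controls) and Bcl11b at 37.5 CPM (134 to 202 in controls). The list's part in the Gabrb2 level was not tested.

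**Figure D2:**
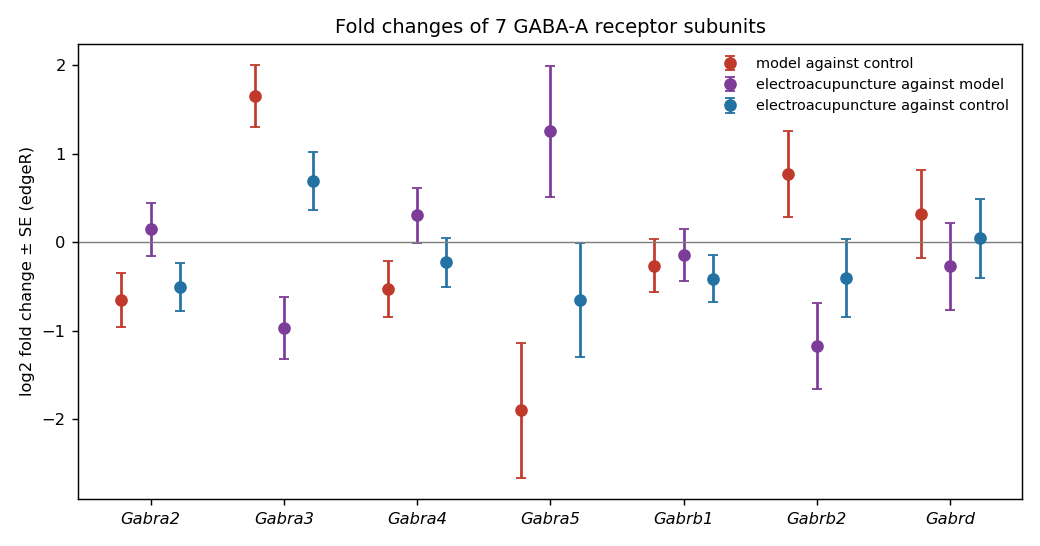
Log2 fold change with its SE (edgeR, vertical axis) of each subunit for the 3 comparisons, over 3 control, 2 model and 3 electroacupuncture samples. Gabra3 (1.65) and Gabra5 (-1.90) have the largest differences between model and control, and the values for electroacupuncture against model have the opposite sign for both (-0.97 and 1.25).

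Electroacupuncture against model addresses the effect of the treatment in operated rats. For Gabra3 and Gabra5 the estimates pointed back toward the control level, but 0 of 7 members passed at an edgeR adjusted p under 0.05, as did 0% of all genes. DESeq2 also called 0 members, where it called 4.51% of genes, and so did edgeR on the 11 columns, where 10.9% were called. At an unadjusted p under 0.05 there were 2 members lower, Gabra3 and Gabrb2, where 7.18% of all genes were lower at that level. The median log2 fold change was -0.15 beside 0.03 over all genes. This comparison shares the model samples with the first, so opposite signs are partly built in.

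Gabra3 averaged 9.55 ± 3.23 CPM (SD, n = 3) with electroacupuncture, and all 3 of those samples were below both model samples (log2 fold change -0.97, SE 0.35, edgeR adjusted p = 0.296). Such separation below was seen for 11.7% of all genes. Electroacupuncture C was within the control range, and A and B were above it. Leaving out model B brought the value to -0.59.

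Gabra5 averaged 158 ± 113 CPM (SD, n = 3), a mean that no single sample was near. Electroacupuncture B and C were inside or just below the control range, and electroacupuncture A was below both model samples. The log2 fold change was 1.25 (SE 0.74, edgeR adjusted p = 0.535) with all samples. Without electroacupuncture A it was 1.74 (SE 0.32, edgeR adjusted p = 0.0488, where 1.82% of genes passed), and it was 0.76 without electroacupuncture B. With the hippocampal list as a covariate it turned to -1.66 (edgeR adjusted p = 0.0611), an adjustment that rests largely on electroacupuncture A.

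Gabrb2 stood at 79.5, 171 and 127.5 CPM in electroacupuncture A, B and C (mean 126 ± 45.9 CPM, SD, n = 3), against 142 and 427 CPM in the model. The log2 fold change of -1.17 (SE 0.49, edgeR adjusted p = 0.353) was -0.17 without model B. Gabra4 lay at 92.0, 127 and 100.3 CPM and Gabrd at 44.4, 32.8 and 28.7 CPM in electroacupuncture A, B and C, and for both genes these values lay between those of model A and model B or just past them. Gabrb1 lay at 63.8, 136 and 106 CPM. The remaining 4 members had log2 fold changes of -0.28 (Gabrd) to 0.30 (Gabra4) with edgeR adjusted p of 0.746 to 0.891, and all 4 overlapped between the groups.

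**Figure D3:**
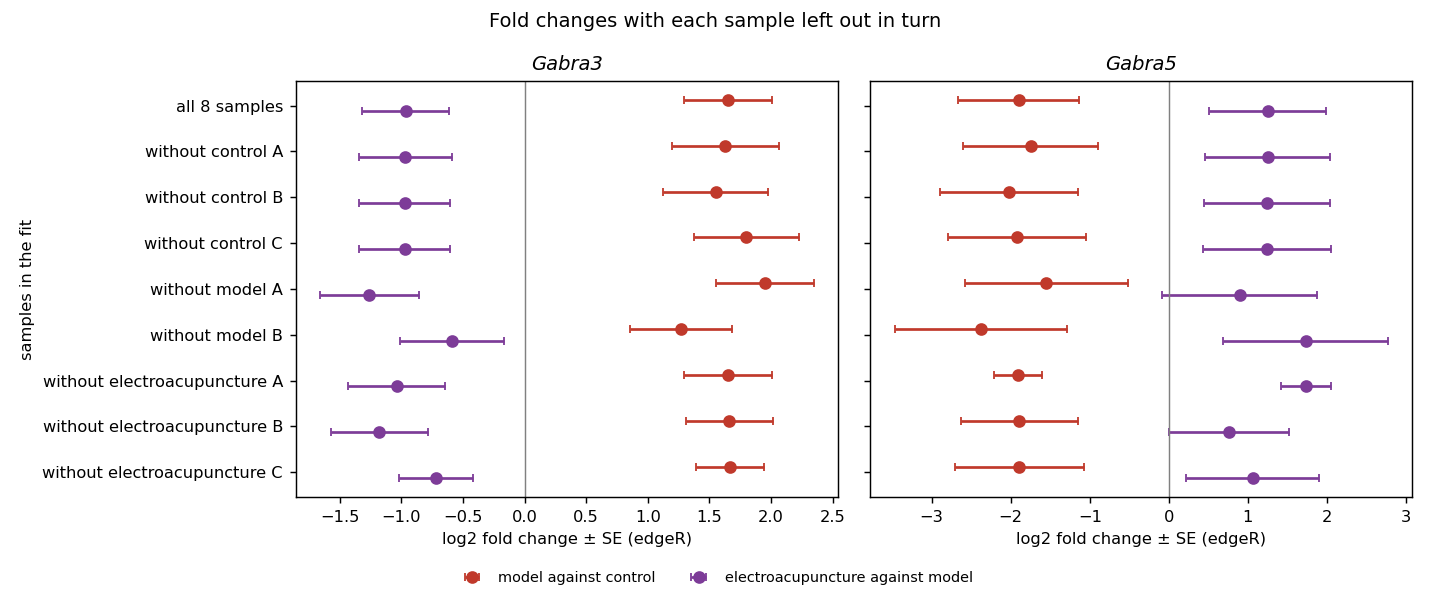
Log2 fold change with its SE (edgeR, horizontal axis) of Gabra3 and Gabra5 with all 8 samples and with each sample left out in turn, in the comparisons of the model with control and of electroacupuncture with the model. The Gabra5 error bars shorten when electroacupuncture A is left out (SE 0.30 and 0.32), and the Gabra3 values keep their signs throughout.

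Electroacupuncture against control addresses how far treated rats differed from rats without the operation. No member passed (edgeR, 0% of all genes) and none had an unadjusted p under 0.05, where 3.66% of all genes did. DESeq2 called 0 members as well, and 0.0054% of genes. Gabra2 was below the controls in all 3 electroacupuncture samples, at 175 ± 61.7 against 248 ± 24.2 CPM (SD, n = 3 each, log2 fold change -0.51, SE 0.27, edgeR adjusted p = 0.843), a separation that 4.88% of all genes showed in this direction. Its distance from the controls was largest in electroacupuncture A, and the value was -0.25 without that sample. Gabra3 remained higher in estimate (0.69, SE 0.33, edgeR adjusted p = 0.843) and Gabrd was at 0.04 (SE 0.45, edgeR adjusted p = 0.986), a value that turned to -0.16 without electroacupuncture A. The median of the 7 members was -0.41 beside 0.01 over all genes. Electroacupuncture A was below every control for 5 of the 7 members and above for 2, where 38.6% and 38.8% of all genes were, with a median log2 difference of -1.04. Electroacupuncture C was below every control for 6 members, where 24.1% of all genes were, with a median of -0.32, and electroacupuncture B for 1, where 26% were, with a median of 0.01.

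Within a sample, the Gabra5 share of the subunit pool followed the split already seen in its level, which enters the share. The shares of Gabrd and Gabrb2 did not follow that split. As a share of the summed CPM of the 7 genes, which is not corrected for length, Gabra5 took 24.7% to 26.2% in the controls, 25.9% and 25.8% in electroacupuncture B and C, but 8.51% in model A, 8.67% in model B and 7.21% in electroacupuncture A. The Gabra5 share was therefore nearly constant within each of these sets although the summed CPM of the 7 genes ran from 426 in electroacupuncture A to 1138 in control A. Gabra3 took 2.35% to 2.58% in those 3 samples and 0.507% to 1.28% in the others. Gabra5 is part of the total behind these shares. In level Gabra3 did not follow the split, at 10.7 CPM in electroacupuncture A and 12.1 CPM in electroacupuncture B. Gabrd took 6.99% in model B, 10.4% in electroacupuncture A and 3.04% to 4.07% in the remaining 6 samples. Gabrb2 reached 43.6% in model B, against 14.8% to 25.4% elsewhere. The log2 ratio of Gabrd to Gabra4, partners in extrasynaptic receptors, was -0.74 in model B and -1.05 in electroacupuncture A and lay between -2.10 and -1.63 in the other samples, model A among them. The log2 ratio of Gabra2 to Gabra5 was 1.79 (model A), 0.84 (model B) and 1.77 (treated sample A), and between -0.14 and 0.14 in the other 5.

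**Figure D4:**
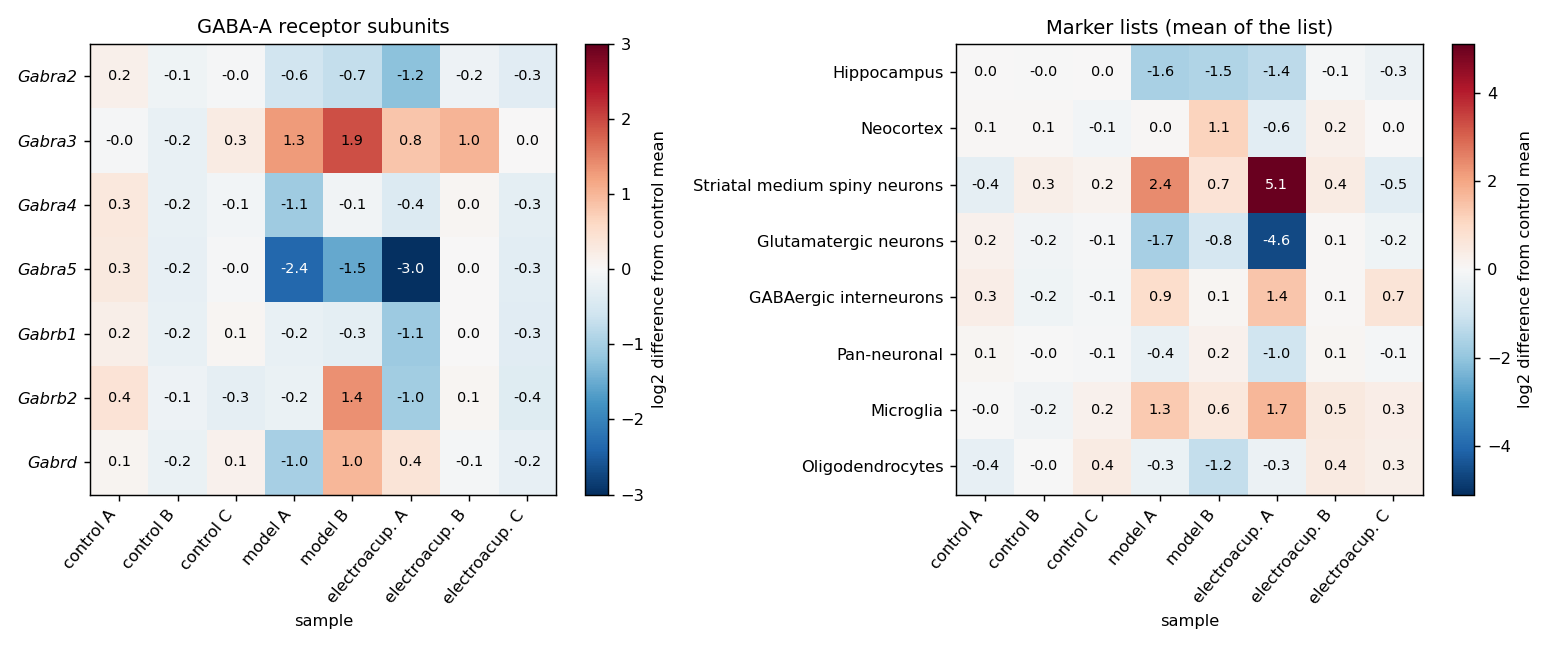
Log2 difference from the control mean in each of the 8 samples (columns) for the 7 subunits (left) and for the mean of 8 marker lists (right), with a color scale for each panel. Gabra5 and the hippocampal list are both low in these 3: model A, model B, electroacupuncture A, and the striatal list is highest in electroacupuncture A (5.06).

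Across the 8 samples, Gabra2 varied most like Gabra5 (Pearson r of log2 CPM 0.94) and Gabrb1 (0.92), and Gabra5 like Gabrb1 (0.81). Gabra3 ran the other way from Gabra5 (-0.59) and Gabra2 (-0.58), and Gabrd had an r of -0.02 with Gabra5. These values describe 8 samples that also differ in group, depth and marker levels. Among 14810 other genes whose mean reached 1 CPM, the closest to Gabra5 were Rtn4 (0.996), which encodes the axon growth inhibitor Nogo, and Plppr2 (0.994). Rtn4 stood at 586 to 701 CPM in controls, 370 to 427 CPM in the model, and 306 (A), 618 (B) and 571 (C) CPM in the treated samples. The closest to Gabra3 were Ptprt (0.974), a receptor tyrosine phosphatase, and Samd10 (0.974). Ptprt stood at 24.8 to 32.5 CPM in controls, below 88.2 (A) and 147 (B) CPM for the model. The closest genes to the other members were Aggf1 and Cops2 for Gabra2 (0.990 and 0.989), Diras2 and Actr3b for Gabra4 (0.983 and 0.982), Pcsk5 and Rab11a for Gabrb1 (0.990 and 0.986), Syt4 and LOC103690160 for Gabrb2 (0.978 and 0.973), and Camkk2 and Ddr2 for Gabrd (0.982 and 0.980).

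Gabra5 and Gabrb1 varied alike (Pearson r 0.81), while Gabra3 had an r of -0.59 with Gabra5 and -0.23 with Gabrb1. The promoter windows of these genes are shown because they differ in base composition and in the short motifs they hold. They come from RefSeq (assembly GRCr8), run 5′ to 3′ on the gene's strand from 250 bases before to 50 bases after the annotated start, and carry a searched motif in capitals where one was found on either strand. Of the 7 members, 6 have a window in that table. Gabra2 has none there.
Gabra5, chr1:117516557-117516856, minus strand: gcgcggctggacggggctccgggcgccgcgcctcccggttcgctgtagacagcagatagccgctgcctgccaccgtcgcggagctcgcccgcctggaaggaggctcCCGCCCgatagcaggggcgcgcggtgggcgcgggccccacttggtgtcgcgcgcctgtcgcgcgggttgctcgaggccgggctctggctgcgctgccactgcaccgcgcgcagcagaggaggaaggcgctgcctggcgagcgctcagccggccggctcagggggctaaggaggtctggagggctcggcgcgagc
Gabrb1, chr14:36902844-36903143, minus strand: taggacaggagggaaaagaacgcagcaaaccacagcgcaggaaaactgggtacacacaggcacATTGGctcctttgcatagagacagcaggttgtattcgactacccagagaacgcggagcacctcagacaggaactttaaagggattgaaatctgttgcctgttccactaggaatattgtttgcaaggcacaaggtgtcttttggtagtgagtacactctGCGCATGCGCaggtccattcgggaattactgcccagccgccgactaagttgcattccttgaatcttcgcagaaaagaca
Gabra3, chrX:155543821-155544120, minus strand: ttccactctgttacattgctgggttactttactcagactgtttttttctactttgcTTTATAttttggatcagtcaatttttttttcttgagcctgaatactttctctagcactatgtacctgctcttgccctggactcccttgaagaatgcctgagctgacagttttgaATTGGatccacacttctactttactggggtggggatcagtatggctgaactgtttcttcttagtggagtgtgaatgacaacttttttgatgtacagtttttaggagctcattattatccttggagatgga
The Gabra5 window is 76.3% G or C, higher than 97.6% of 33465 windows, the Gabrb1 window 49.3%, and the Gabra3 window 39.3%, higher than 10.6%. The capitals in Gabra5 mark a GC box (GGGCGG, here on the opposite strand), the motif of Sp-family factors, which 33.1% of all windows and the windows of Gabra4, Gabra5 and Gabrd hold. In Gabrb1 they mark a CCAAT box (CCAAT on the opposite strand, 37.5% of windows) and the core of the NRF1 element (GCATGCGC), read on both strands at overlapping positions, which 2.47% of windows and that of Gabrb2 hold. In Gabra3 they mark a TATA box (TATAAA on the opposite strand, 14.2% of windows) and a CCAAT box. A cyclic AMP response element (TGACGTCA, 1.83% of windows) was in none of the 6. Apart from the strands of the NRF1 core, no motif overlapped another in the windows shown. Gabrb1 and Gabrb2, the 2 members with that core, had a Pearson r of 0.49 across the 8 samples.

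Several members lie next to other subunit genes. In the same annotation Gabrb1 and Gabra4 are neighbors on chromosome 14, as are Gabra2 and Gabrg1, and Gabrb2 lies next to Gabra6 on chromosome 10. The neighbor of Gabra2 differed from it in the direction of the estimate for model against control, but its groups overlapped. Gabrg1, which encodes gamma1, stood at 48.7 to 73.3 CPM in controls, and the model samples, where Gabra2 was lower in estimate, held 70.3 to 80.7 CPM. The log2 fold change of Gabrg1 was 0.33 (SE 0.20, edgeR adjusted p = 0.494).

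Of 12 other GABA-A and GABA-rho subunit genes, 6 passed the expression filter. Of these, 0 were called in any of the 3 comparisons, where at most 0.00646% of all genes were. Gabra6, the cerebellar granule cell subunit, was at 0 to 1.42 CPM. Gabrr2, which encodes the rho2 subunit known from the retina, was at 1.64 CPM on average in controls, 2.47 in the model and 1.03 with electroacupuncture (log2 fold change -1.23, SE 0.61, edgeR adjusted p = 0.447 for electroacupuncture against model). On chromosome X, where Gabra3 lies, Gabrq reached 4.07 CPM in model A and at most 0.781 CPM in any other sample, while Gabre reached 3.39 CPM in model B and at most 0.183 CPM elsewhere. Both were under the expression filter and untested, and are named here after their values were seen.

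GABA-B receptors, the metabotropic GABA receptors, and their auxiliary proteins had 5 tested genes. Of these, 0 were called in any comparison, where at most 0.00646% of all genes were. Kctd12, an auxiliary subunit that speeds desensitization of the GABA-B response, averaged 139 ± 16.7 CPM (control, SD, n = 3) and 86.5 ± 14 CPM (model, SD, n = 2) (log2 fold change -0.68, SE 0.24, edgeR adjusted p = 0.286). Both model samples lay below every control for Kctd12, where 19.6% of all genes did so. Kctd8, a related auxiliary subunit, was at 1.36 to 1.92 CPM in controls, 5.25 to 11.7 CPM in the model, and 17.4 (A), 3.15 (B) and 2.21 (C) CPM in the treated samples. Its log2 fold change of 2.33 in the model had an SE of 0.87 (edgeR adjusted p = 0.297).

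Genes of GABA synthesis, transport and breakdown had 8 tested members. Of these, 0 were called in any comparison, where at most 0.00646% of all genes were. The median log2 fold change of this list was 0.30 for model against control. Slc32a1, the vesicular GABA transporter, measured 18.5 to 25.6 CPM in controls, 31.9 to 59.9 CPM in the model, and 125 (A), 32.6 (B) and 24.6 (C) CPM in the treated samples. Its highest value was in the sample with the highest striatal list, whose medium spiny neurons are GABAergic. The part of that list in the Slc32a1 level was not tested. Slc6a13, a GABA transporter of the meninges, averaged 3.78 ± 0.608 CPM (control, SD, n = 3) and 7.9 ± 0.799 CPM (model, SD, n = 2) (log2 fold change 1.06, SE 0.34, edgeR adjusted p = 0.245).

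The inhibitory postsynapse and trafficking list had 17 tested members, of which 12 were lower in estimate in the model, where 48.5% of all genes were, and 0 were called, where 0.00646% of all genes were. Shisa7, an auxiliary subunit of GABA-A receptors, averaged 364 ± 51.6 CPM (control, SD, n = 3), 218 ± 38.1 CPM (model, SD, n = 2) and 296 ± 28.7 CPM (electroacupuncture, SD, n = 3). It was 1.67-fold lower in the model than in control (log2 fold change -0.74, SE 0.20, edgeR adjusted p = 0.19). Gabarapl2, a relative of the GABA-A receptor trafficking protein GABARAP, measured 103 ± 11.8, 64.3 ± 2.93 and 88.7 ± 20.2 CPM in the same order. Both genes were without overlap between model and control, where 5 of the 17 lay below and 0 above, beside 19.6% and 18.2% of all genes. The list's median log2 fold change was -0.18 in the model against control and 0.20 with electroacupuncture against the model.

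Chloride transport decides whether an open GABA-A channel inhibits a neuron. Of 8 tested genes of chloride homeostasis 0 were called in any comparison, where at most 0.00646% of all genes were. Slc12a2, the chloride importer NKCC1, averaged 62.3 ± 9.66 CPM (model, SD, n = 2) and 92.4 ± 14.1 CPM (electroacupuncture, SD, n = 3) (log2 fold change 0.57, SE 0.24, edgeR adjusted p = 0.367). Controls averaged 74.1 ± 19.3 CPM (SD, n = 3). Clcn2, a chloride channel, measured 125 CPM on average in controls, 91.2 in the model and 107 with electroacupuncture (edgeR adjusted p = 0.542 for model against control).

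**Figure D5:**
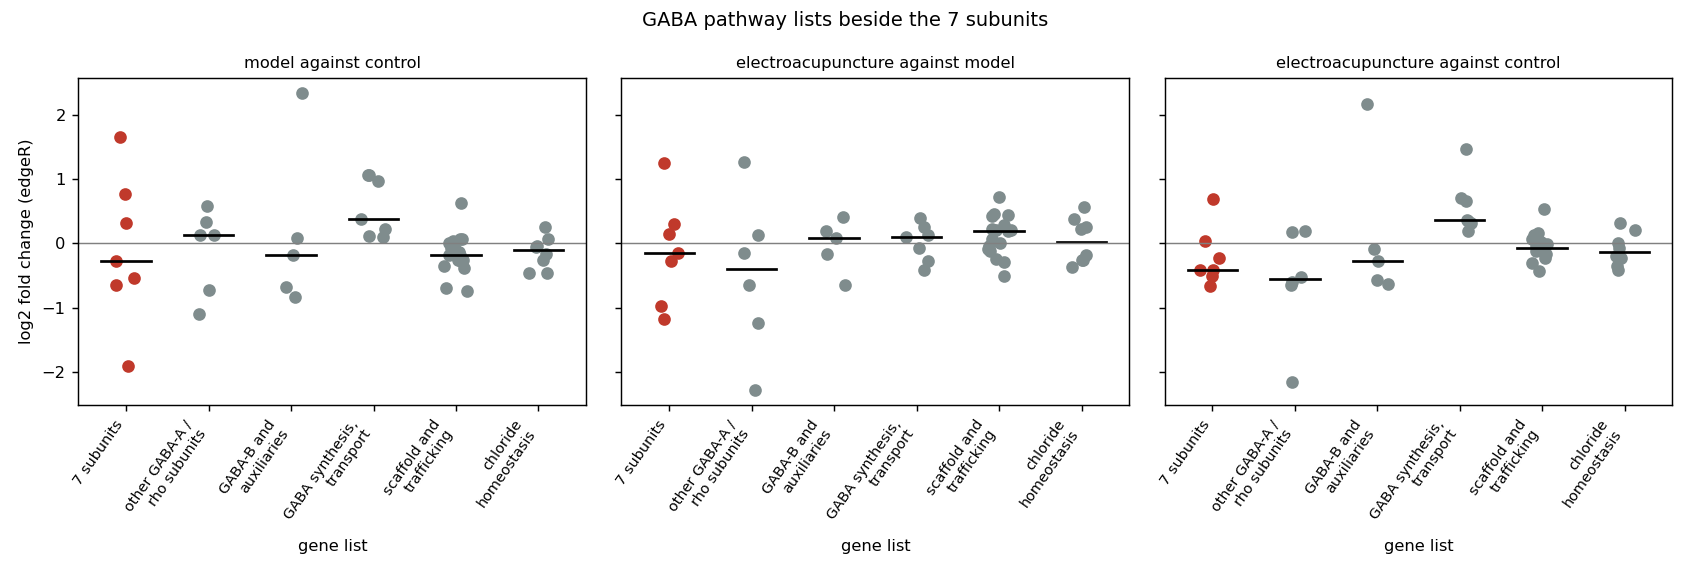
Log2 fold change (edgeR, vertical axis) of each tested gene in 5 GABA pathway lists (grey) and of the 7 subunits (red) for the 3 comparisons, with the median of each list as a line. Gad2 is left out of the points and of the medians because it is at 0 CPM in both model samples. The genes of GABA synthesis and transport that are shown sit above 0 in model against control. Gad2 was the 1 gene of that list lower in estimate there (log2 fold change -6.99). The 7 subunits spread from -1.90 to 1.65.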

How the data were processed

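RNA selected by poly(A) from brain tissue went into libraries that keep the strand, read from both ends, per the labels' protocols. The authors deposited expected counts per gene (between 70.5% and 72.1% of a column's values are whole) without normalization. The submitters' processing notes name HISAT2 2.0.5, StringTie 1.3.3b and featureCounts 1.5.0-p3, and also DESeq2 1.16.1, with no roles. The sources used here do not give the genome build or the treatment of shared and duplicate reads.

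A column's name gave its group but no sample, and columns named as sham-operated were taken as control. Symbols on 2 rows (4 symbols) were summed and values rounded. Column pairs of a group under 2 times the sampling variance (genes with at least 20 counts in the pair) were summed. All 8 samples entered 1 two-sided quasi-likelihood fit in edgeR 4.0.16 under R 4.3.3, with TMM, the default filter and robust dispersion. It tested 15487 genes with 5 residual degrees of freedom, at a coefficient of biological variation of 36.8%. The F statistic gave the SEs. Log2 CPM had a prior count of 2. Alternatives were DESeq2 1.42.0, total-count scaling, other filters, separate columns, 2-group fits, a hippocampal marker covariate and leaving out each sample. Scripts were tested on simulated data. Separate animals are not stated, so each p-value reflects the spread of these samples, possibly technical.

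The members, lists and tests were chosen with earlier results of these data known. All members are named. For each pathway list the 2 genes with the smallest unadjusted p in any comparison (mean at least 1 CPM) are named, and for each member the 2 genes with the highest Pearson r. One gene that this rule names is not reported here. Other genes named are marked as such or serve as markers or neighbors.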

Additional observations from a re-analysis of the deposited data

How the results depend on the processing

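The level of the hippocampal marker list as a covariate moved the most values. Within groups that level ran from -0.03 to 0.02 in controls, -1.64 to -1.52 in the model and -1.35 (A) to -0.08 (B) with electroacupuncture. The fitted slope thus rests mainly on electroacupuncture A. With the covariate the median log2 fold change of the 7 subunits went to 1.01 for model against control. It went to -0.93 for electroacupuncture against model and -0.0095 for electroacupuncture against control. Model against control turned to 0.69 for Gabra2, 0.039 for Gabra4, 1.98 for Gabra5, 1.01 for Gabrb1 and -0.15 for Gabrd. Electroacupuncture against model turned to -0.78 for Gabra2, -0.066 for Gabra4 and -1.66 for Gabra5, and electroacupuncture against control to 0.32 for Gabra5, 0.053 for Gabrb2 and -0.15 for Gabrd. The cause was not tested.

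The count of subunits called in model against control was 1 (Gabra3) with DESeq2, with all 11 columns as separate libraries and with a replicate block of the column numbers on those columns, an alternative added after seeing the data. Under that block Gabra3 was at 1.69 (edgeR adjusted p = 0.0458, where 3.08% of all genes were called) and Gabrd at -0.035 in electroacupuncture against control. Of same-numbered pairs of columns, 7 of 10 had a correlation over 0.1 (range -0.161 to 0.19), against 10 of 30 differently numbered pairs. As not every same-numbered pair passed 0.1, the numbers were not taken as pairing. A summed pair carries more than 1 number, so no block was run on the 8 samples.

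Leaving out each sample in turn gave 0 to 1 subunits called in model against control and in electroacupuncture against model. The 1 was Gabra5 without electroacupuncture A in both. For model against control the log2 fold change ranged from -0.24 to 1.35 for Gabrb2 and from -1.01 to 0.99 for Gabrd. For electroacupuncture against model it ranged from -0.081 to 0.41 for Gabra2, -0.10 to 0.87 for Gabra4, -0.42 to 0.11 for Gabrb1 and -0.96 to 1.05 for Gabrd, and for electroacupuncture against control from -0.16 to 0.18 for Gabrd. A lone model sample was then assumed to vary like the other groups. Total-count scaling, the other filters and the 2-group fits turned no member's direction. Over all genes, calls in model against control were 1 in edgeR, 799 in DESeq2 and 1129 with separate columns, and in electroacupuncture against model 0, 705 and 1666. Leaving out electroacupuncture A raised the calls over all genes in model against control to 565, and leaving out model A to 356. The model group holds 2 samples, and the lowest count of a member in a sample was 44.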
